A study of Mus musculus with 17 samples.

Results

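The genes Ttpa, Cldn1, Pmp22, Kcnk3 and Sgk2 were followed across brown adipose tissue of Noct knockout and wild-type mice held at room temperature or in the cold. The 5 genes were chosen by their cold response in these libraries, the change between 22 °C and 6 °C in either genotype, from outside the classic thermogenic set. Their cold values below, and the difference between the cold values of the 2 genotypes, are therefore a description, with no test. All 5 were among the 21982 genes of the count table and among the 12486 genes that passed the filter on low counts and were tested.

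The mice carried the C57BL/6 background and were Noc+/+ (wild type) or Noc-/- (knockout), the symbol standing for Nocturnin, a clock-controlled phosphatase encoded by Noct. They were littermates, caged singly with the food taken away, and spent 4 h at either temperature. The design was made of 4 wild types at 22 °C (3 females, 1 male), 5 wild types at 6 °C (4 females, 1 male), 4 knockouts at 22 °C (1 female, 3 males) and 4 knockouts at 6 °C (1 female, 3 males). Each library came from a different mouse. The study's text gives young adults of 10 to 20 weeks, whereas the labels give ages between 11.14 and 23.57 with no unit. The labels name no tissue-specific promoter or Cre.

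The 5 proteins do different work. Kcnk3 encodes TASK-1, an acid-sensitive two-pore potassium channel that carries a background current, and in brown adipocytes it is known as a brake on adrenergic heat production. Cldn1 encodes claudin-1, a strand-forming protein of tight junctions in skin and liver, and Pmp22 encodes a membrane protein of the same tetraspan superfamily as the claudins, best known from the myelin of Schwann cells. Ttpa encodes the α-tocopherol transfer protein, a lipid carrier through which the liver retains vitamin E, and Sgk2 encodes a kinase of the serum- and glucocorticoid-regulated family, which is switched on by PDK1 and acts on ion transporters and FOXO factors.

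Library totals ran from 18410748 to 47598200 counts, and mitochondrially encoded genes took 43.4 to 57.3% of each. Levels are given as CPM, counts scaled to library size by TMM. Noct was read at 91.5 to 457 CPM in the wild types and at 3.37 to 34.2 CPM in the knockouts, so every library matched its genotype label. Ucp1, which marks brown adipocytes, lay between 3684 and 7847 CPM in every library. Wild-type 22 °C replicate 2 stood apart from its group in Ppargc1a, a cold-induced coactivator, with 493 CPM where the group's median was 116 CPM (n = 4). The differences that use the wild types at 22 °C are also given without it. That library was the only male of its group and had the most counts of all libraries, so sex and an odd library cannot be told apart there. The tissue was sequenced in bulk, so fewer cells of a type and less RNA per cell cannot be told apart.

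**Figure D1:**
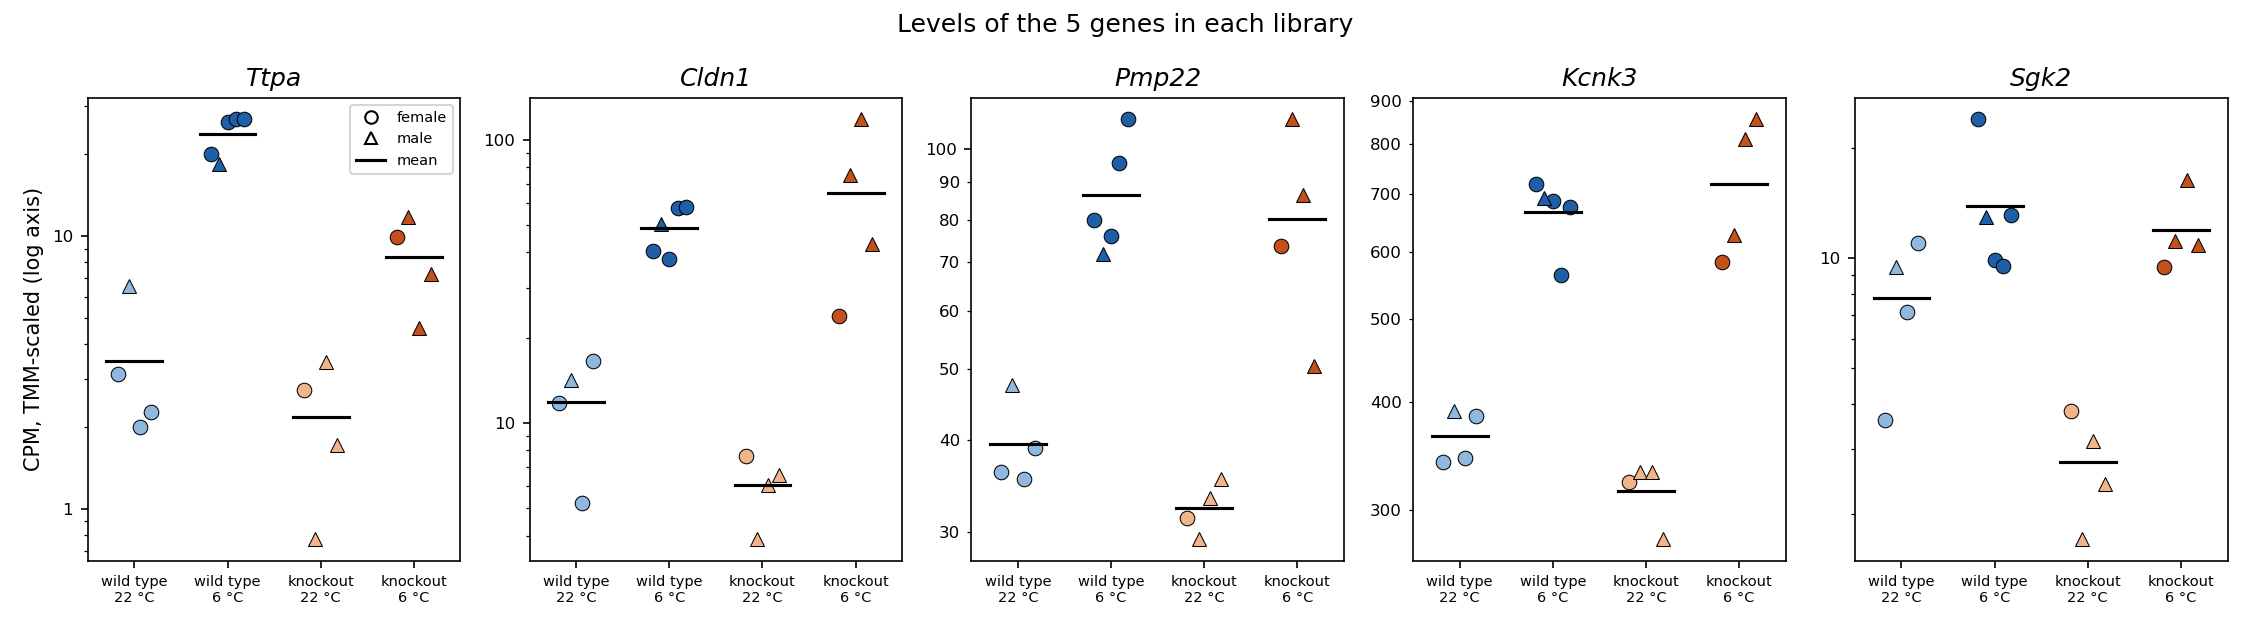
Level of each gene in each of the 17 libraries, in CPM on a log axis, by genotype and temperature. Circles are females, triangles males and bars group means. Within each genotype all 6 °C libraries lie above all 22 °C libraries, except for Sgk2 in wild type, where 3 of 5 do. Ttpa in the cold knockouts, at 4.61 to 11.8 CPM, lies below the 18.3 to 26.9 CPM of the cold wild types. Such separations were not counted over all tested genes.

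Kcnk3 was the most abundant of the 5. In wild types at 22 °C it measured 341, 391, 344 and 385 CPM, and at 6 °C it measured 719, 693, 688, 563 and 676 CPM. In knockouts it measured 323, 332, 331 and 277 CPM at 22 °C and 583, 627, 811 and 857 CPM at 6 °C. The temperatures did not overlap in either genotype, and the 563 CPM of wild-type replicate 4 was the lowest of the cold libraries. Group means went from 365 ± 26.3 to 668 ± 60.6 CPM (SD, n = 4 and 5) in wild type and from 316 ± 26.3 to 719 ± 135 CPM (SD, n = 4 and 4) in knockout. The fitted log2 differences were 0.88 ± 0.12 (SE) and 1.18 ± 0.12. Kcnk3 lies at 30588170 to 30625271 of chromosome 5, plus strand, in the build GRCm38, and overlaps the antisense noncoding gene Gm9899. The labels do not say whether counting used strand, so how reads from the stretch shared by these 2 genes were counted is not known. Whether their exons overlap was not examined.

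Pmp22 was the second most abundant. Wild types had 36.2, 47.6, 35.4 and 39.1 CPM at 22 °C and 79.9, 71.8, 76.0, 95.7 and 109.9 CPM at 6 °C. Knockouts had 31.4, 29.3, 33.3 and 35.4 CPM at 22 °C and 73.7, 109.8, 86.5 and 50.5 CPM at 6 °C. No cold library of either genotype came down to the 47.6 CPM of wild-type replicate 2, the highest at 22 °C. Means were 39.6 ± 5.59 and 86.7 ± 15.8 CPM in wild type (SD, n = 4 and 5) and 32.3 ± 2.62 and 80.1 ± 24.8 CPM in knockout (SD, n = 4 and 4), with log2 differences of 1.14 ± 0.18 and 1.31 ± 0.19 (SE). The gene occupies positions 63128982 to 63159547 on the plus strand of chromosome 11.

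Cldn1 had the widest spread relative to its mean among the cold knockouts. At 22 °C the wild types had 11.8, 14.2, 5.20 and 16.5 CPM and the knockouts 7.67, 3.88, 6.04 and 6.54 CPM. At 6 °C the wild types had 40.3, 50.4, 37.8, 57.2 and 58.1 CPM. The cold knockouts had 23.9, 74.9, 118 and 42.7 CPM, so that knockout replicate 1 was below every cold wild type and replicates 2 and 3 above every one. Means were 11.9 ± 4.87 and 48.8 ± 9.37 CPM in wild type (SD, n = 4 and 5) and 6.03 ± 1.59 and 65.0 ± 41.4 CPM in knockout (SD, n = 4 and 4). The log2 differences were 2.06 ± 0.38 and 3.35 ± 0.42 (SE). Cldn1 is encoded on the minus strand of chromosome 16 (26356642 to 26371841).

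Ttpa had the largest cold difference of the 5 in wild type, from a low level. Wild types at 22 °C had 3.12, 6.56, 2.00 and 2.27 CPM, and replicate 2, the library with the high Ppargc1a, was the highest of them. Wild types at 6 °C had 20.1, 18.3, 26.2, 26.9 and 26.8 CPM. Knockouts had 2.73, 0.770, 3.44 and 1.71 CPM at 22 °C and 9.92, 11.8, 4.61 and 7.29 CPM at 6 °C. Both genotypes were separated by temperature, but the cold knockouts reached less than the lowest cold wild type. Means were 3.48 ± 2.10 and 23.7 ± 4.13 CPM in wild type (SD, n = 4 and 5) and 2.16 ± 1.17 and 8.40 ± 3.12 CPM in knockout (SD, n = 4 and 4). The log2 differences were 2.76 ± 0.39 and 1.96 ± 0.41 (SE), and that of the wild type was 3.34 without wild-type 22 °C replicate 2. These values rest on 24 to 926 reads per library. The gene is at 20007938 to 20030785 of chromosome 4, plus strand.

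Sgk2 was the member whose wild-type groups overlapped. Wild types had 3.60, 9.48, 7.14 and 10.97 CPM at 22 °C and 24.0, 12.98, 9.86, 9.53 and 13.2 CPM at 6 °C. Cold replicates 3 and 4 were below the highest wild type at 22 °C. Knockouts had 3.82, 1.70, 3.17 and 2.41 CPM at 22 °C and 9.46, 11.1, 16.4 and 10.9 CPM at 6 °C, with no overlap. Means were 7.80 ± 3.21 and 13.9 ± 5.90 CPM in wild type (SD, n = 4 and 5) and 2.78 ± 0.919 and 11.96 ± 3.04 CPM in knockout (SD, n = 4 and 4). The log2 differences were 0.83 ± 0.32 and 2.10 ± 0.36 (SE), and the counts behind them were 53 to 493 reads per library. The wild-type difference was 0.55 without wild-type 6 °C replicate 1, the library at 24.0 CPM. It maps to 162987330 to 163014127 of chromosome 2, plus strand.

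In the wild type, Ttpa, Cldn1, Pmp22 and Kcnk3 passed the threshold used here, an adjusted p below 0.05 over all tested genes in edgeR's quasi-likelihood test, as higher, and Sgk2 did not. In all tested genes 14.3% were called higher and 13.3% lower in that comparison. In the knockout all 5 passed it as higher, beside 11.6% of tested genes called higher and 10% called lower. These counts only restate how the genes were chosen. By size of the log2 difference, among 12486 genes, Ttpa ranked 10th in wild type and 59th in knockout, Cldn1 41st and 11th, Pmp22 239th and 201st, Kcnk3 429th and 261st, and Sgk2 489th and 50th. The median of the 5 log2 differences was 1.14 in wild type and 1.96 in knockout, against -0.03 and -0.02 over all tested genes. Without wild-type 22 °C replicate 2 the wild-type differences were 2.08 for Cldn1, 1.25 for Pmp22, 0.88 for Kcnk3 and 0.97 for Sgk2, beside the 3.34 of Ttpa.

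Levels of different genes can be set side by side only per length, as RPKM, reads scaled to gene length and library size. The order of mean RPKM in wild types at 22 °C was Kcnk3 (102.7), Pmp22 (18.8), Cldn1 (4.11), Sgk2 (2.55) and Ttpa (1.11). The range of Cldn1 overlapped that of Sgk2 there, and the range of Sgk2 overlapped that of Ttpa. Within each of these libraries, however, Sgk2 was above Ttpa. In wild types at 6 °C the order was Kcnk3 (163), Pmp22 (36.2), Cldn1 (14.8), Ttpa (6.62) and Sgk2 (3.97), so Ttpa and Sgk2 exchanged places, although their libraries still overlapped (5.03 to 8.15 RPKM for Ttpa and 2.56 to 6.75 RPKM for Sgk2). In the knockouts the order was that of the wild types at 22 °C at both temperatures. At 22 °C Kcnk3 had 79.0, Pmp22 13.6, Cldn1 1.84, Sgk2 0.816 and Ttpa 0.626 RPKM. The ranges of Cldn1 and Sgk2 overlapped there, as did those of Sgk2 and Ttpa, but Cldn1 was above Sgk2 within each library. At 6 °C the values were 170, 31.7, 18.2, 3.25 and 2.29 RPKM. The range of Pmp22 overlapped that of Cldn1, as that of Sgk2 did that of Ttpa, but Pmp22 was above Cldn1 within each library. The mean RPKM of Kcnk3 ranked 188th of 12486 genes in wild types at 22 °C and 113th at 6 °C, while that of Ttpa moved from rank 8466 to rank 2970. The gene length implied by the deposited values equalled the summed exon length of GENCODE vM21 for 4 of the 5 genes. For Cldn1 it was 3247 bases against 4841, and a longer length would lower its RPKM in every library alike.

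Promoter windows from RefSeq (GRCm38.p6, 300 bases around an annotated start) were available for Cldn1, with 1 start, and Pmp22, with 4 starts, and so for 2 of the 5 genes. No window was available for Ttpa, Kcnk3 or Sgk2, and this fixed which genes are shown. Cldn1 and Pmp22 also had the highest correlation of log2 CPM over the 17 libraries among the 10 pairs of members. Its r of 0.92 is a description, since all libraries share the 2 temperatures. Capitals mark matches on either strand to a GC box (GGGCGG, or CCGCCC in reverse) or a CCAAT box (CCAAT, or ATTGG in reverse). The Pmp22 starts are named by order along the plus strand, and the third window, chr11:63132319-63132618, overlaps the fourth and is left out.
Cldn1, minus strand, chr16:26371790-26372089: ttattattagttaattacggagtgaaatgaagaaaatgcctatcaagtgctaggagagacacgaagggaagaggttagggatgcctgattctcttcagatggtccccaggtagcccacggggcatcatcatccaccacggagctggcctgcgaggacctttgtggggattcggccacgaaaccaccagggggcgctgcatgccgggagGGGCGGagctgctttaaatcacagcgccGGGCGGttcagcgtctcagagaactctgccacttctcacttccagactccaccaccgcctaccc
Pmp22 start 1, plus strand, chr11:63128732-63129031: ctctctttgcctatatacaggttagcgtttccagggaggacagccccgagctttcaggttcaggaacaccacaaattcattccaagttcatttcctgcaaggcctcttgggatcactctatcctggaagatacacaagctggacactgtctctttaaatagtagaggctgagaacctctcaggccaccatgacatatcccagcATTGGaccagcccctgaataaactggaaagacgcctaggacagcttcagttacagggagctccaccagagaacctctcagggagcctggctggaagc
Pmp22 start 2, plus strand, chr11:63131207-63131506: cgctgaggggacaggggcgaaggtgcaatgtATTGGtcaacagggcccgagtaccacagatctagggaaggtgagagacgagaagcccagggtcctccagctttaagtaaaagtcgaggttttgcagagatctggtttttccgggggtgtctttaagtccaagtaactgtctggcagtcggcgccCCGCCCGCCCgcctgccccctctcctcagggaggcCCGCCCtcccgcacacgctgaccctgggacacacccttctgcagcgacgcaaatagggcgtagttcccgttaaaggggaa
Pmp22 start 4, plus strand, chr11:63132553-63132852: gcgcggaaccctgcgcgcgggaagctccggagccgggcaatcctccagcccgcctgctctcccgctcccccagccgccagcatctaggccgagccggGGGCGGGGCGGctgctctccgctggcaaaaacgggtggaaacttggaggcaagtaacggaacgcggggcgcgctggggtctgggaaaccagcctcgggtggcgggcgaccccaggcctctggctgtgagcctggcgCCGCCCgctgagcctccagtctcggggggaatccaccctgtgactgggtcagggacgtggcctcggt
The Cldn1 window held GC boxes 42 and 14 bases before its start. The first Pmp22 window held a CCAAT box 47 bases before its start and no GC box, and was 50.7% G and C. The second held a CCAAT box and 3 GC boxes, and the fourth, at 72.3% G and C, held 3 GC boxes. In both of these windows 1 pair of GC boxes overlapped. Of all 32851 RefSeq windows of 300 bases, 35.66% held a GC box and 37.41% a CCAAT box, and the median window was 52.7% G and C. None of the 5 windows held the cAMP response element TGACGTCA (1.79% of all windows), its core TGACG (20.81%), an E-box CACGTG (7.15%), a heat-shock element GAANNTTC (7.86%), the C/EBP palindrome TTGCGCAA (0.18%), a D-box TTATGTAA (0.94%), an ERR element AAGGTCA (4.72%) or a TATA box TATAAA (13.62%), on either strand. A match or its lack describes the letters of these windows alone.

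Whether the loss of Noct altered the members was tested at each temperature. At 22 °C none of the 5 was called, beside 0.016% of all tested genes (2 genes, both lower; 486 genes had an unadjusted p below 0.05). All 5 point estimates were below 0, beside a median of -0.002 over all tested genes. These libraries entered the choice of the genes, so the shared sign is a description and not 5 separate results. Sgk2 had the largest of the estimates. Its 4 knockouts averaged 2.78 ± 0.919 CPM and the 4 wild types 7.80 ± 3.21 CPM (SD), and 3 of 4 knockouts were below every wild type. Its log2 difference was -1.49 ± 0.36 (SE, 95% interval -2.26 to -0.73), with an unadjusted p of 0.000701 and an adjusted p of 0.673 in edgeR. DESeq2 gave -1.49 as well with an adjusted p of 0.0406, the only call of a member outside the cold comparisons in any of the alternatives run. In this comparison DESeq2 called 10 of all 12486 tested genes, all lower, against the 2 of edgeR. Without wild-type 22 °C replicate 2 the edgeR value of Sgk2 was -1.30.

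Cldn1 at 22 °C differed by -1.11 ± 0.41 (SE, interval -1.97 to -0.25, adjusted p = 0.998 in edgeR), and 1 of 4 knockouts was below every wild type. Kcnk3 was lower in all 4 knockouts than in all 4 wild types, but by only -0.27 ± 0.13 (interval -0.55 to -0.001, adjusted p = 0.998 in edgeR). How many of all tested genes separate in this way was not counted. Pmp22 differed by -0.32 ± 0.20 (interval -0.75 to 0.10), and by -0.16 without wild-type 22 °C replicate 2. The value of Ttpa, -0.73 ± 0.42 (interval -1.61 to 0.14), turned to 0.09 without that library, and both of these genes had adjusted p = 0.998 in edgeR. The values of Cldn1 and Kcnk3 without it were -1.11 and -0.28. The 22 °C libraries were also one arm of the cold differences by which the genes were chosen.

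At 6 °C again none of the 5 was called, beside 0.04% of all tested genes (5 genes; 393 had an unadjusted p below 0.05). Ttpa stood farthest out: all 4 cold knockouts were below all 5 cold wild types, and the ratio of the means was 0.355. The share of all tested genes with such a separation was not counted, so nothing is read from it. For Ttpa the log2 difference was -1.54 ± 0.40 (SE, interval -2.38 to -0.70), with an unadjusted p of 0.0012 and an adjusted p of 0.844 in edgeR. Over the alternatives it lay between -1.78 and -1.21, and its adjusted p between 0.287 and 1. Cldn1 differed by 0.18 (interval -0.70 to 1.05), by -0.21 without knockout 6 °C replicate 3 and by 0.69 without knockout 6 °C replicate 1. Pmp22 differed by -0.16 (interval -0.58 to 0.27), Kcnk3 by 0.03 (interval -0.24 to 0.30) and Sgk2 by -0.23 (interval -0.97 to 0.51). With single libraries left out, these 3 lay between -0.32 and -0.01, -0.04 and 0.15, and -0.39 and 0.01. The intervals of Cldn1 and Sgk2 reach 1.05 and -0.97, so a like level in both genotypes was not shown. The 6 °C libraries were the other arm of the cold differences by which the genes were chosen. The genotype values at 6 °C, that of Ttpa among them, are therefore not free of that choice.

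**Figure D2:**
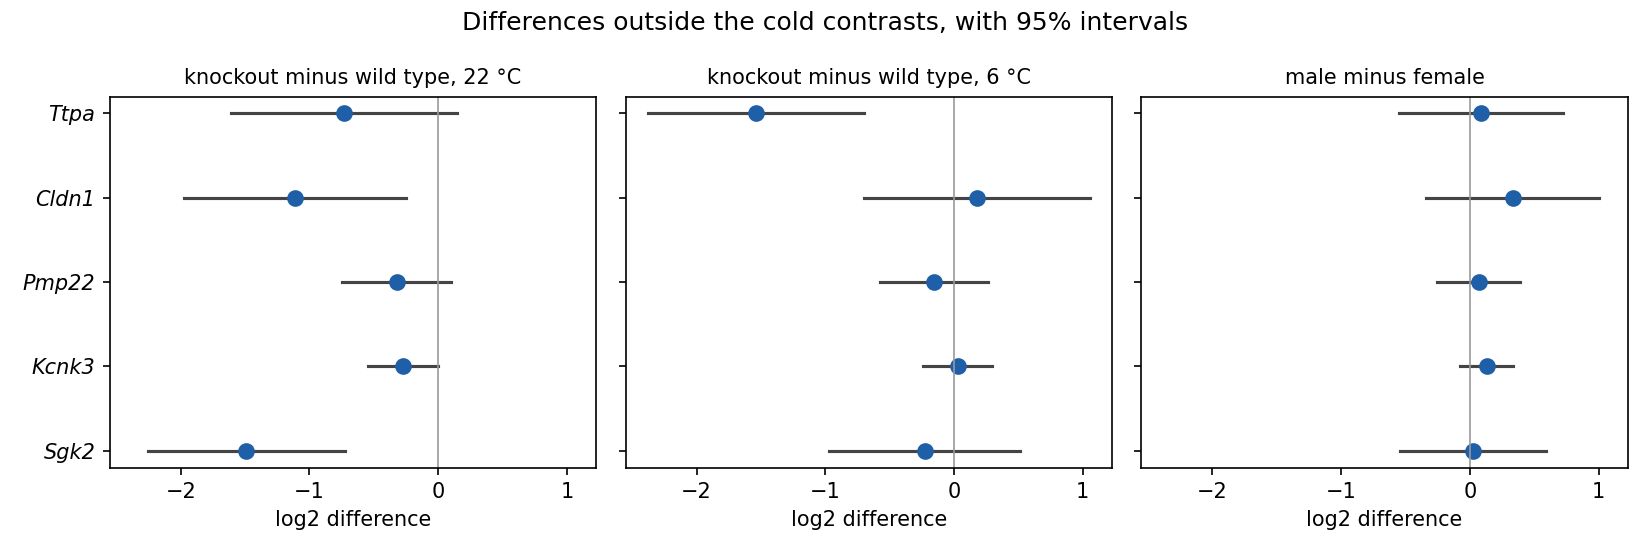
Log2 differences of the 5 genes between genotypes at each temperature and between sexes, with 95% intervals from the edgeR fit (dots: estimates; lines: intervals; vertical line: no difference). The intervals of Sgk2 at 22 °C (-2.26 to -0.73) and Ttpa at 6 °C (-2.38 to -0.70) lie farthest from 0, and no adjusted p was below 0.05.

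Averaged over both temperatures, the genotype difference was -1.14 ± 0.30 (SE) for Ttpa (adjusted p = 0.674 in edgeR) and -0.86 ± 0.27 for Sgk2 (adjusted p = 0.941). No member was called, beside 0.0561% of all tested genes (7 genes; 564 at an unadjusted p below 0.05). Without wild-type 22 °C replicate 2 the averaged values were -0.58 for Ttpa and -0.72 for Sgk2. These averages hold both arms of the cold differences used for the choice.

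The cold responses of the genotypes were set side by side as their difference, knockout minus wild type. It is built from the cold values by which the genes were chosen, and is given without a test. It was 1.29 ± 0.53 (SE) for Cldn1, 1.26 ± 0.47 for Sgk2, 0.30 ± 0.17 for Kcnk3 and 0.17 ± 0.26 for Pmp22. Ttpa had -0.80 ± 0.55, which was -1.34 without wild-type 22 °C replicate 2 and -0.45 without knockout 22 °C replicate 3. Without the first of these libraries the other values were 1.29 for Cldn1, 1.16 for Sgk2, 0.32 for Kcnk3 and 0.08 for Pmp22, and with single libraries left out Pmp22 lay between 0.00 and 0.35. These differences use the same 22 °C libraries as the genotype differences there, so the values of Sgk2 and Cldn1 in both are not separate results.

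Sex was unequal between the genotypes, and it was a term of the fit. Male minus female, the log2 difference was 0.33 (interval -0.34 to 1.01) for Cldn1, 0.13 (interval -0.07 to 0.34) for Kcnk3, 0.09 (interval -0.55 to 0.72) for Ttpa, 0.07 (interval -0.26 to 0.39) for Pmp22 and 0.03 (interval -0.54 to 0.59) for Sgk2. None was called (adjusted p = 0.998 in edgeR), beside 0.0641% of all tested genes (8 genes; 691 at an unadjusted p below 0.05). The value of Cldn1 was -0.01 without knockout 6 °C replicate 1 and 0.66 without knockout 22 °C replicate 1. Without wild-type 22 °C replicate 2, the only male of its group, that of Ttpa was -0.42, that of Pmp22 -0.05 and that of Sgk2 -0.12. Kcnk3 lay between 0.06 and 0.20 with single libraries left out. The only female among the cold knockouts, replicate 1, had the lowest Cldn1 (23.9 CPM), Kcnk3 (583 CPM) and Sgk2 (9.46 CPM) of its group.

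The relatives and partners of the 5 genes were read from 9 lists holding 103 tested genes. Of these 24 rose (23.3%) and 18 fell (17.5%) in the cold wild types, beside 14.3% and 13.3% of all tested genes. In the cold knockouts 14 rose (13.6%) and 12 fell (11.7%), beside 11.6% and 10%. The same background applies to each list below, and nothing particular to a list is read from its count. Of them, 12 rose and 10 fell in both genotypes, and no gene changed in opposite directions. On the authors' RPKM scale with a pseudocount of 1, tested with limma, 9 rose and 29 fell in wild type, and over all genes the called genes were 22.0% higher, against 51.8% on the TMM scale. In knockout that share was 41.3% against 53.6%. The median of all genes on that scale was -0.11 in wild type. Small changes in the lists below are therefore relative to the TMM scale, and the number of the 30 alternatives that kept a call is given. None of the 103 genes was called in any comparison of genotype, of cold responses (0.00801% of all tested genes were, 1 gene; 310 had an unadjusted p below 0.05) or of sex.

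**Figure D3:**
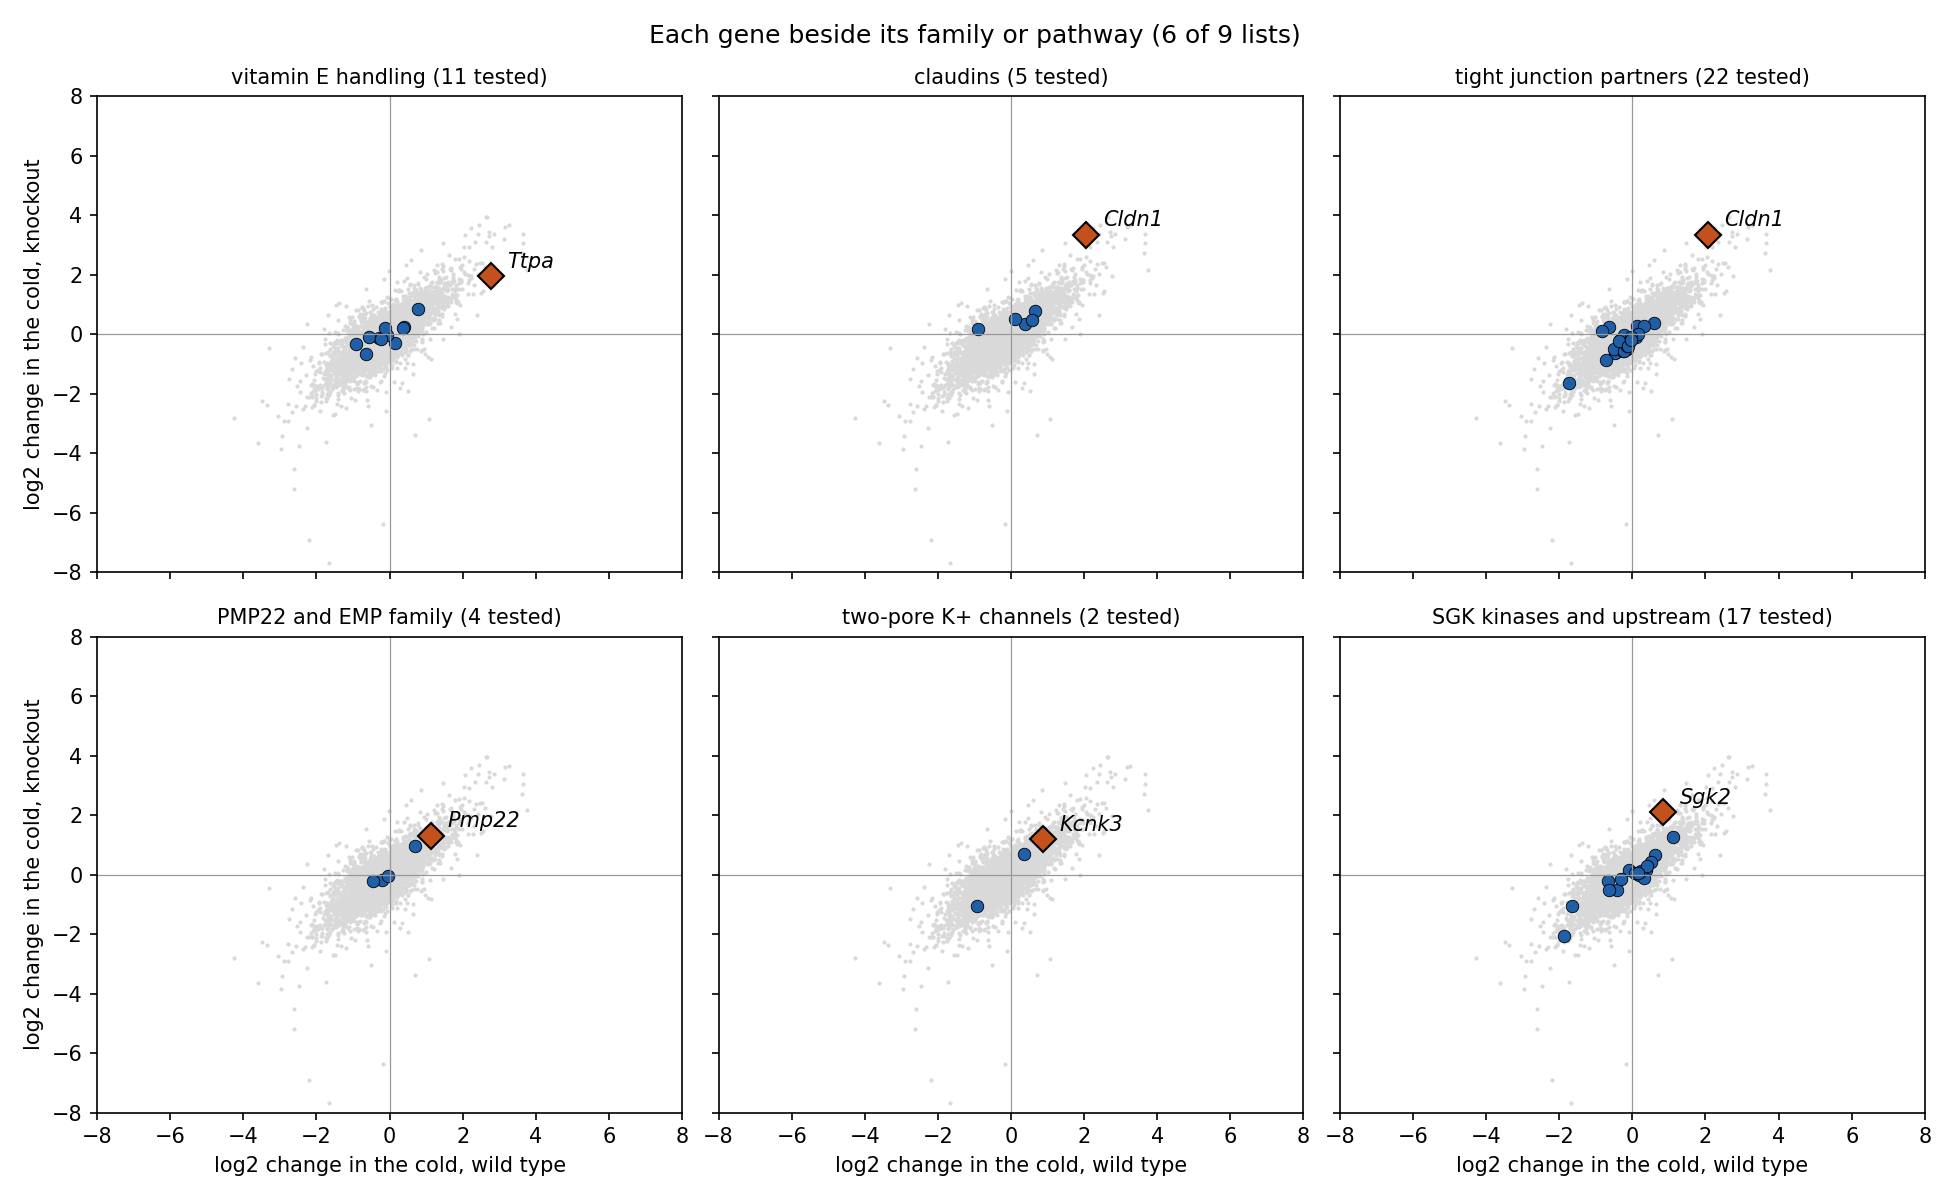
Log2 change in the cold in wild type (horizontal) and knockout (vertical) for all 12486 tested genes (grey), the relatives or partners on 6 of the 9 lists (blue circles) and the member (orange diamond). In these 6 panels each diamond lies above and to the right of all blue points, except that Sgk1 (1.10) exceeds Sgk2 (0.83) in wild type. On the lists not drawn, Foxo1 (1.24) exceeds Sgk2 and Kcna5 (1.12) exceeds Kcnk3 (0.88) in wild type, and Kcnc4 (1.501) exceeds Kcnk3 (1.18) in knockout. The call of Kcnc4 in knockout was kept in 14 of 29 alternatives, and its value was 0.14 with log2(RPKM + 1).

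Around Kcnk3, 2 of the 13 other listed two-pore potassium channels passed the filter on low counts, Kcnk2 and Kcnk6. Kcnk2, the channel TREK-1, fell in wild type by 0.94 on the log2 scale (adjusted p = 0.0465 in edgeR, a call kept in 18 of 30 alternatives) and had a value of -1.06 in knockout with an adjusted p of 0.0546. Kcnk6 had values of 0.37 and 0.71 with no call. Both were low, at mean levels up to 0.569 RPKM for Kcnk2 and 0.526 RPKM for Kcnk6, against 79.0 to 170 RPKM for Kcnk3. Among 19 tested genes of adipocyte ion transport, 4 rose and 1 fell in wild type and 3 rose in knockout. Kcna5, a voltage-gated potassium channel, rose by 1.12 and 0.73, and Atp1b1, a subunit of the sodium pump, rose by 0.79 and 0.69. The call of Atp1b1 was kept in all 30 alternatives in both genotypes, whereas that of Kcna5 was kept in 30 in wild type and in 18 in knockout. Slc12a2, a sodium-potassium-chloride carrier, rose by 0.87 in wild type (kept in 21 of 30).

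Around Cldn1, 25 other claudins and claudin-like genes were in the table and 5 passed the filter. Cldnd1, a claudin-domain protein, rose by 0.58 in wild type and 0.48 in knockout (adjusted p = 0.000543 and 0.00396 in edgeR, kept in all 30 alternatives). Cldn5, the claudin of endothelium, had values of 0.67 and 0.77, and Cldn12 had 0.39 and 0.35, with no call. Of 22 tested cytoplasmic and transmembrane partners of claudins, 7 fell (31.8%, beside 13.3% of all tested genes) and 2 rose in wild type, and 5 fell (22.7%, beside 10%) and none rose in knockout. The list medians were -0.22 and -0.21, beside -0.03 and -0.02 over all tested genes. Afdn, the adaptor afadin, fell by 0.72 and 0.84, and Jam2, a junctional adhesion molecule, fell by 0.47 and 0.63, both kept in all 30 alternatives in either genotype. Tjp1, the scaffold ZO-1, fell by 0.39 and 0.47 (kept in 20 and 23 of 30). Pard6b, a polarity adaptor read at low counts, fell by 1.73 in wild type and fell by 1.64 in knockout (kept in 27 and 15 of 28).

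Claudin-1 is typical of epithelia, so markers of epithelium were read beside it. Krt5 was at 0 in 13 of 17 libraries, Epcam in 12 and Cdh1 in 7. The summed level of 12 epithelial markers was 0.0907 to 16.3 CPM in wild types at 22 °C, 0.031 to 5.01 CPM in wild types at 6 °C, 0.0962 to 11.6 CPM in knockouts at 22 °C and 0 to 0.116 CPM in knockouts at 6 °C. At 22 °C the highest of these sums were thus as large as Cldn1 itself, which had 3.88 to 16.5 CPM there. In the cold the sums were below Cldn1 in every library, and the cold knockouts, where Cldn1 reached 118 CPM, held at most 0.116 CPM of these markers together. The 4 tested markers, Krt8, Krt18, Krt19 and Dsp, were not called in either genotype, with log2 values between -2.62 and -1.67 in wild type. In knockout they lay between -7.69 and -3.75, values that rest on cold libraries with almost no reads of these genes. The part of these cells in the 22 °C values of Cldn1 was not tested.

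Around Pmp22, 4 relatives passed the filter. Emp1, an epithelial membrane protein of the same family, rose by 0.71 in wild type (kept in 25 of 30) and by 0.95 in knockout (kept in 30). Emp2, Emp3 and Tmem47 had values between -0.46 and -0.05 in wild type with no call. Since Pmp22 is a major gene of Schwann cells, their other markers were read beside it. Of 14 markers 9 were tested, none rose, 3 fell in wild type and 2 in knockout. Mbp, myelin basic protein, was 17.8 to 26.9 CPM over all libraries with log2 differences of 0.18 in wild type and -0.05 in knockout and no call. Erbb3, the neuregulin receptor of Schwann cells, fell by 1.00 and 1.47 (kept in 29 and 30 of 30). The sum of the 14 markers was 56.6 to 87.5 CPM in wild types at 22 °C, 65.3 to 77.8 CPM at 6 °C, 75.8 to 103 CPM in knockouts at 22 °C and 70.5 to 75.6 CPM at 6 °C. S100b and Mbp together made up most of each sum. S100b alone was at 24.9 to 69.2 CPM over all libraries, and at 34.7 to 69.2 CPM in knockouts at 22 °C. The sum thus mostly followed these genes. Mbp was read in every library, and Mag, myelin-associated glycoprotein, had no read in 5 libraries and at most 0.227 CPM in the others.

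**Figure D4:**
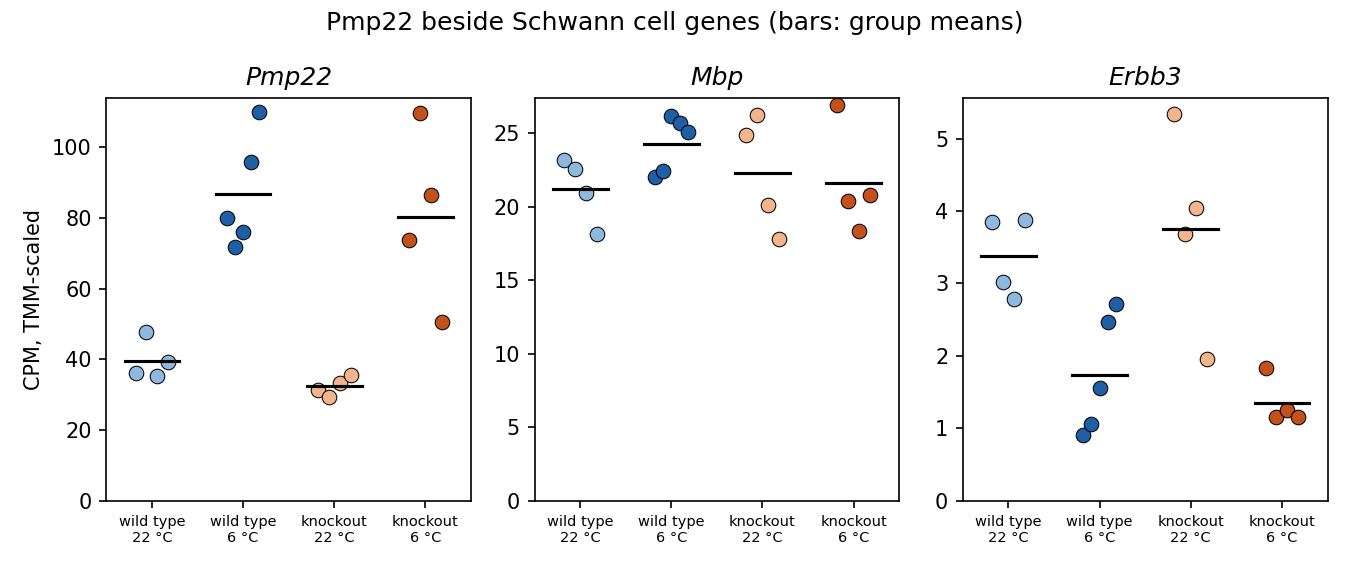
Level in CPM of Pmp22 and of the Schwann cell genes Mbp and Erbb3 in each library (dots), with group means (bars), on linear axes from 0. Pmp22 is higher in every 6 °C library, Mbp keeps to 17.8 to 26.9 CPM throughout, and Erbb3 is lower at 6 °C in both genotypes.

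Around Ttpa, 11 genes of vitamin E handling were tested, of which 3 rose and 3 fell in wild type and 1 rose and 1 fell in knockout. Lpl, lipoprotein lipase, through which tissues take up vitamin E from circulating particles, rose by 0.78 and 0.87 (adjusted p = 0.00218 and 0.00174 in edgeR). Sec14l4, a tocopherol-associated lipid carrier, fell by 0.65 and 0.66. Scarb1, the receptor SR-BI, fell by 0.91 in wild type, and had a value of -0.31 in knockout (adjusted p = 0.397). Abca1, a cholesterol exporter that also moves α-tocopherol, fell by 0.55 in wild type. All these calls were kept in all 30 alternatives, except that of Sec14l4 in knockout, which was kept in 29. Ttpal, a gene named for its likeness to Ttpa, rose by 0.39 in wild type (kept in 27 of 30) and had 0.26 in knockout with no call.

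Among 11 tested genes with the same lipid-binding fold as Ttpa, the CRAL-TRIO domain, 4 rose and 1 fell in wild type, and 2 rose and 1 fell in knockout. Gdap2 rose by 0.88 and 0.80 (kept in all 30 alternatives), and Nf1, a Ras regulator that carries such a domain, rose by 0.52 and 0.47 (kept in 29). Ttpa is above all a hepatocyte gene, and the summed level of 12 hepatocyte markers was 40.3 to 93.3 CPM in wild types at 22 °C and 57.0 to 119.8 CPM at 6 °C. It was 35.6 to 97.4 CPM in knockouts at 22 °C and 37.0 to 113 CPM at 6 °C. Alb was at 0 in 4 libraries and at most 27.1 CPM, and Apoa1 was at 0 in 8 and at most 2.08 CPM. In the cold knockouts 7 of the 12 markers had no count in any library. The sums thus rested on few of the listed genes and are not a level of hepatocyte markers in general. None of the 3 tested hepatocyte markers was called. The part of these cells in the Ttpa values was not tested.

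Around Sgk2, all 17 listed genes of its family and of the kinases above it were tested, of which 5 rose and 4 fell in wild type and 2 rose and 4 fell in knockout. Sgk1, the founding member of the family, rose by 1.10 and 1.26 (adjusted p = 0.000375 and 0.000247 in edgeR), and Sgk3 fell by 0.42 and 0.51 (kept in 24 and 28 of 30). Pdpk1, which encodes PDK1, the kinase that phosphorylates the activation loop of SGKs, rose by 0.63 and 0.65. Pik3r1, the regulatory subunit of phosphoinositide 3-kinase, fell by 1.88 and 2.06, the largest called fall on the 9 lists in either genotype. Prr5l, a partner of the mTORC2 complex, fell by 1.65 and 1.07, and Akt2 fell by 0.65 and 0.53 (kept in 30 alternatives in wild type and in 27 and 25 in knockout). The calls of Sgk1, Pdpk1 and Pik3r1 were kept in all 30 alternatives.

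Of 14 tested substrates and downstream genes of SGK kinases, 5 rose and 2 fell in wild type, and 4 rose and 2 fell in knockout. Foxo1, a transcription factor held out of the nucleus by SGK and AKT, rose by 1.24 and 1.15 (kept in all 30). Nedd4l, the ubiquitin ligase of the epithelial sodium channel, rose by 0.48 and 0.49 (kept in 21 and 14 of 30), and Wnk1 rose by 0.37 and 0.35 (kept in 28 and 23). Scnn1a, a subunit of that channel, fell by 0.98 in wild type (kept in 21 of 30).

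The genes whose log2 CPM followed each member most closely over the 17 libraries were found among 12161 genes. The libraries share 2 temperatures, so these correlations mostly describe the cold, and they carry no test. Ttpa was nearest to Stard5 (r = 0.95), a sterol-binding protein, then to the small heat-shock protein gene Hspb1 (0.94) and Senp3 (0.93). Cldn1 was nearest to Cars2 (0.94), the deiodinase gene Dio2 (0.93) and the phosphodiesterase gene Pde7b (0.93). Pmp22 was nearest to the kinase gene Fyn (0.96), the lipase gene Lipg (0.96) and the amino acid transporter gene Slc7a6 (0.95). Kcnk3 was nearest to Zdhhc5 (0.97), Mafk (0.96) and Dio2 (0.96), and Sgk2 to the adenylyl cyclase gene Adcy3 (0.94), Acot4 (0.93) and Klhl18 (0.92). Dio2 appeared for both Cldn1 and Kcnk3. Of the 15 places, 6 were shared when knockout 6 °C replicate 3 was left out and 9 to 13 when any other library was.

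With the group means and sex removed, the closest genes were others: Nxt1 and Cd163 for Ttpa (both r = 0.83), Thsd1 (0.87) and Ipcef1 (0.85) for Cldn1, Brca1 and Mcmbp (both 0.85) for Pmp22, Sf3a1 (0.91) and Cep120 (0.88) for Kcnk3, and Adam12 (0.84) and Polr1a (0.83) for Sgk2. These are the highest of 12161 values over 17 libraries and are a description. Brca1 and Ipcef1 were read near the floor, with group means of 0.195 to 0.237 CPM and 0.133 to 0.348 CPM.

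The nearest tested genes on the chromosome did not share the size of the members' changes. Selenoi, 315.7 kb from Kcnk3, rose by 0.47 in wild type and 0.41 in knockout (adjusted p = 0.0148 and 0.0469 in edgeR, kept in 28 and 16 of 30 alternatives). Srsf6, a splicing factor gene 50.2 kb from Sgk2, rose by 0.42 and 0.41 (adjusted p = 0.00649 and 0.0133, kept in 28 and 29). Ift52, on the other side of Sgk2 at 3.2 kb, had -0.08 and -0.07, and Ggh, 11.3 kb from Ttpa, had 0.10 and 0.11. Neither these nor Wwp1, P3h2, Il1rap, Tvp23b, Hs3st3b1 and Slc35f6, the remaining neighbours, were called in the cold.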

How the data were processed

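Messenger RNA of brown adipose tissue was read in 17 libraries. The reads had been aligned and counted by the authors. The tools named per the submitters' processing notes are STAR and HTSeq, and the builds mm10 and GRCm38.p6. Versions, annotation and strand are not given in the sources used here. One deposited table gives unnormalised counts for each gene symbol, and a second table deposited by the authors holds RPKM values, which equal those counts scaled to gene length and total count. No 2 count columns were identical. Groups came from the labels.

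The analysis ran in edgeR 4.0.16 (R 4.3.3). After filterByExpr on the 4 groups, counts were scaled by TMM and fitted with a quasi-likelihood model to all 17 libraries, with group means and labelled sex (12 residual degrees of freedom). Tests were two-sided, with Benjamini-Hochberg adjustment across the 12486 genes tested and a threshold of 0.05. Errors of log2 values are SE. Mice are the replicates. Reads carry no molecular identifiers.

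The 5 genes and all lists were chosen with earlier results of these data known. Named beside the members were, for each, the 3 genes with the highest r over all libraries and the 2 with the highest residual r (log2 CPM, prior count 2, predicted names left out), up to 4 called genes per list (or 2 by level where none was called), the nearest tested neighbours, and Noct, Ppargc1a, Dio2 and Ucp1. Not every gene so taken is described, and 2 listed genes are not reported here and were left out of their list's counts and sums. Positions came from GENCODE vM21 on GRCm38, promoters from RefSeq.

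The 30 alternatives were DESeq2 size factors in edgeR, no filter, at least 1 CPM in 4 samples, the Wald test of DESeq2 1.42.0, no sex term, sex with age, the replicate number as a block with and without sex, the compared groups only, the majority sex of each genotype, limma-trend (limma 3.58.1) on log2(RPKM + 1) or log2(RPKM + 0.1), no mitochondrial genes, and leaving out each of the 17 libraries. The procedure was tested on simulated data.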

Additional observations from a re-analysis of the deposited data

Results flagged for a closer look

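In 20 sets of a gene and a group, the highest and lowest library were compared with their neighbours by Dixon's ratio, and 2 sets held a library far from the others, where chance gives about 1 in 20 sets. Kcnk3 in wild-type 6 °C replicate 4 was 563 CPM, and the next library of that group was 676 CPM, a gap of 0.722 of the range against a limit of 0.71. Sgk2 in wild-type 6 °C replicate 1 was 24.0 CPM, the highest of all 17 libraries, and the next of its group was 13.2 CPM, a gap of 0.749 of the range. Without that library the Sgk2 difference between genotypes at 6 °C was 0.01 on the log2 scale, against -0.23 with it.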

How the results depend on the processing

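Across the alternatives run for each, no call of a list gene appeared in the genotype, cold-response or sex comparisons. Among the members, DESeq2 called 1 at 22 °C between genotypes (Sgk2), and no other alternative called any in the genotype or sex comparisons. Over all 12486 tested genes DESeq2 called 10 at 22 °C between genotypes, against 2 in edgeR. The median cold difference of the members in knockout was 1.13 with log2(RPKM + 1), a scale that compresses low genes. Called list genes in cold wild types (24 higher, 18 lower) became 9 higher and 29 lower with log2(RPKM + 1), 8 and 28 with log2(RPKM + 0.1), and 9 lower with the majority sex. Leaving out 1 library gave 14 to 24 higher and 10 to 20 lower, with the lowest counts without wild-type 22 °C replicate 1 (10 lower) or replicate 4 (14 higher, 11 lower). In cold knockouts (14 higher, 12 lower) the counts were 9 and 5 with the compared groups only or the majority sex, and 8 or 9 higher on the RPKM scales. Leaving out 1 library gave 9 to 21 higher and 7 to 11 lower, with 9 higher without knockout 6 °C replicate 1 and 7 lower without knockout 22 °C replicate 2 or 3. The cause of these shifts was not tested.

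The deviations of 24 same-numbered pairs of libraries had r from -0.42 to 0.44, with r above 0.1 in 11 of them. Pairs with different numbers were not read beside them, so these values do not settle whether same-numbered libraries were paired. With the replicate block, 10 list genes were lower in cold wild types, and 11 without the sex term, and no member was called between genotypes. Depth is lowest for Ttpa, which rested on as few as 24 reads in a library.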

Other observations

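Whether members varied together among mice of one group was examined after their values had been seen, over 17 libraries and 10 pairs. Group means were removed here, and sex was not. Cldn1 and Pmp22 had Pearson's r = 0.52 (permutation p = 0.148, adjusted 0.406) and Spearman's rho = 0.71 (permutation p = 0.00505, adjusted 0.0505), and r = 0.60 without the 2 libraries farthest from the median of Cldn1. Kcnk3 and Sgk2 had r = 0.46 (permutation p = 0.0406, adjusted 0.406) and rho = 0.53 (permutation p = 0.029, adjusted 0.145), and r = 0.38 without 2 libraries. No pair passed the adjustment over the 10 pairs.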
